A study of Homo sapiens with 6 samples.

Results

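The genes for 10 secreted, non-collagen proteins of the extracellular matrix were followed through the knockdown of PDCD4, a translational repressor and tumour suppressor, in MCF10A cells, a non-tumorigenic human breast epithelial line. The genes are SPARC, THBS1 and TNC (matricellular proteins), FN1 (an adhesive glycoprotein), DCN and VCAN (proteoglycans), FBLN1 and LTBP1 (elastic fibre and latent TGF-beta binding proteins), and SRPX and CCBE1 (other secreted proteins). They are 10 of 34486 genes with a value and of 13047 genes tested, and all 10 passed the filter on low counts. They were chosen from the matrix genes by function, with the siPDCD4 against siCT results of these same libraries known, so their differences between the groups are given as a description and carry no independent weight.

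Total RNA was sequenced from 3 libraries of cells given siRNA against PDCD4 (siPDCD4, an ON-TARGETplus reagent) and from 3 libraries of cells given control siRNA (siCT). In both groups the siRNA was used at 10 nM for 48 h, and reads were paired, of 75 bases. Whether the 3 libraries of a group were separate cultures is not labelled, and p-values then measure only the spread between these libraries. A lower level in such bulk RNA may come from fewer cells with the transcript or from less RNA per cell, and these cannot be told apart.

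Matrix glycoproteins and proteoglycans are secreted into the space around cells, where they bind collagens, integrins, growth factors and each other. Fibronectin (FN1) is assembled into fibrils by integrins and is the adhesive scaffold on which many other components are laid down. Matricellular proteins such as SPARC, thrombospondin-1 (THBS1) and tenascin-C (TNC) add little structure and instead tune how cells adhere. Proteoglycans carry long sulfated sugar chains on a core protein, decorin (DCN) as a small collagen-binding form and versican (VCAN) as a large hyaluronan-binding form. Most are known best as products of fibroblasts, and basal-type mammary epithelial cells in culture also make several of them.

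The targeted gene checked the labels: PDCD4 had 61.1 to 90.4 CPM (counts on a scale of equal library size, corrected for transcript length) in siCT and 7.43 to 9.15 CPM in siPDCD4, with a log2 fold change of -3.25 ± 0.17 (SE, n = 3 per group; adjusted p = 2.15e-05, edgeR). Libraries held from 13410441 to 21828931 estimated reads, with the fewest in siCT replicate 3. That library also had the lowest share of reads on protein-coding genes, all their transcripts counted (76.2%, against up to 86.4% in siCT replicate 1). It lay at 30.6 on the first principal component (29.3% of the variance), on which siPDCD4 replicate 3 lay at 8.65 and the other 4 libraries at negative values. All 12 markers of breast epithelium were measured above the filter, and their summed level was 3150 to 3556 TPM (Salmon's level per transcript length, on a scale of equal totals) in siCT and 2826 to 3338 TPM in siPDCD4. Of 12 fibroblast markers, 9 stayed under 1 TPM in every library and DPT, TCF21 and PRRX1 were listed at 0 in all 6. The fibroblast sum was 8.77 to 14.9 TPM in siCT and 9.38 to 19.8 TPM in siPDCD4, most of it from FAP. Sums of the other marker lists were 0.484 to 1.10 TPM for endothelial cells, where CLDN5 was listed at 0, 11.6 to 16.6 TPM for leukocytes, where CD3E and MS4A1 were listed at 0, 10.4 to 14.2 TPM for smooth muscle and 0.195 to 0.424 TPM for adipocytes.

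Fibronectin transcripts differ by cassette exons, and the upstream regions of the members differ in the short motifs they hold. The exons and the windows around some motifs are shown here and in the next paragraph. No level or fold change was tested against a motif. The extra domain A exon of FN1 (90 codons, GRCh38, chr2:215380811-215381080, minus strand) and the extra domain B exon (91 codons, chr2:215392931-215393203, minus strand) each encode a whole fibronectin type III repeat that is skipped or kept in the mature mRNA. No part of either exon is singled out, so both are in lower case.
FN1 extra domain A: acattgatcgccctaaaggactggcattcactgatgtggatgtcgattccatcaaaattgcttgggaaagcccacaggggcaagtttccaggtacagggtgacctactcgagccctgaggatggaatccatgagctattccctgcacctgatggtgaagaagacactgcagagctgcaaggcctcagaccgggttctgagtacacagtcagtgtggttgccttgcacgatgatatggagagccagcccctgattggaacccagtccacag
FN1 extra domain B: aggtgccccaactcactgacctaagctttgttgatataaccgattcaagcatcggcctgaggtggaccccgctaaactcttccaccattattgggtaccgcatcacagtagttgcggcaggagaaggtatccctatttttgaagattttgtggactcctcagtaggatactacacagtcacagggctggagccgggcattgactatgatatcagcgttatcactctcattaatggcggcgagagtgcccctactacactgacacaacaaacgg

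RefSeq upstream sequences (GRCh38.p14) were at hand for 9 members in 11 windows, 3 of them for LTBP1, which has distal and proximal starts, and 250 bases before each start were searched on both strands. The cyclic AMP response element TGACGTCA was found for FN1, 183 bases before the start, and for the distal start of LTBP1, 94 bases before it, and 1.65% of all 35116 upstream windows held it. The TEAD motif GGAATG was found for SPARC, 17 bases before the start, and for THBS1, 46 bases before it, against 11.9% of all windows. The starts are those of RefSeq, and some windows reach into the gene as bounded in GENCODE. The SPARC match lies inside that gene, which reaches 151686975 on the minus strand. The FBLN1 window (chr22:45502633-45502882) lies wholly inside its gene, which begins at 45502238. GC boxes (GGGCGG) were found for 6 members against 42.6% of all windows, with 6 matches for FN1, some of which overlap each other. Neither the AP-1 motif TGANTCA (6.57% of all windows) nor TATAAA (10.7%) occurred in the windows of these 9 members. The windows around the rarer matches are given with the motif in capitals, 5′ to 3′ on the strand of the gene, and a match describes letters only.
FN1 (chr2:215436233-215436262, minus strand): acagtcccccgTGACGTCAcccggagcccg
LTBP1 (chr2:32946848-32946877, plus strand): gatctgccgccTGACGTCAcgtctgccgga
SPARC (chr5:151686916-151686945, minus strand): ctaaacccctccaCATTCCcgcggtccttc
THBS1 (chr15:39581021-39581050, plus strand): gaggaatccccaGGAATGcgagcgcccctt

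Levels were ordered per transcript length, in TPM summed over all transcripts of a gene. For SPARC the full coding transcript, SPARC-201, held only 10.5% to 14.0% of that sum in siCT and 10.2% to 12.6% in siPDCD4. The place of SPARC below is that of the gene sum, not of this transcript. THBS1 stood first, at 159 to 184 TPM in siCT, above every other member in every library, and it made up 40.2% to 46.9% of the summed TPM of the 10 genes. FBLN1 (42.3 to 53.0 TPM in siCT), FN1 (22.7 to 66.9 TPM) and SPARC (33.9 to 36.7 TPM) followed, and in siCT neighbours among these 3 overlapped. The place of FN1 rested on siCT replicate 3, since in replicates 1 and 2 its 23.4 and 22.7 TPM lay below both SPARC and LTBP1. LTBP1 (28.2 to 29.5 TPM), DCN (20.6 to 28.1 TPM) and VCAN (13.8 to 23.4 TPM) came next, with DCN and VCAN overlapping and DCN just under LTBP1. SRPX (7.94 to 9.77 TPM), CCBE1 (3.39 to 4.47 TPM) and TNC (1.33 to 2.48 TPM) were the lowest, and their ranges in siCT did not overlap. In siPDCD4 the order differed at SPARC, which with 53.8 to 58.4 TPM stood above FBLN1 (46.0 to 49.1 TPM), at DCN, which lay above VCAN in each siCT library and below it in each siPDCD4 library (8.23 to 14.0 TPM against 14.0 to 21.8 TPM), and at CCBE1, whose 1.71 to 2.03 TPM lay below TNC (2.03 to 2.54 TPM) in each siPDCD4 library.

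**Figure D1:**
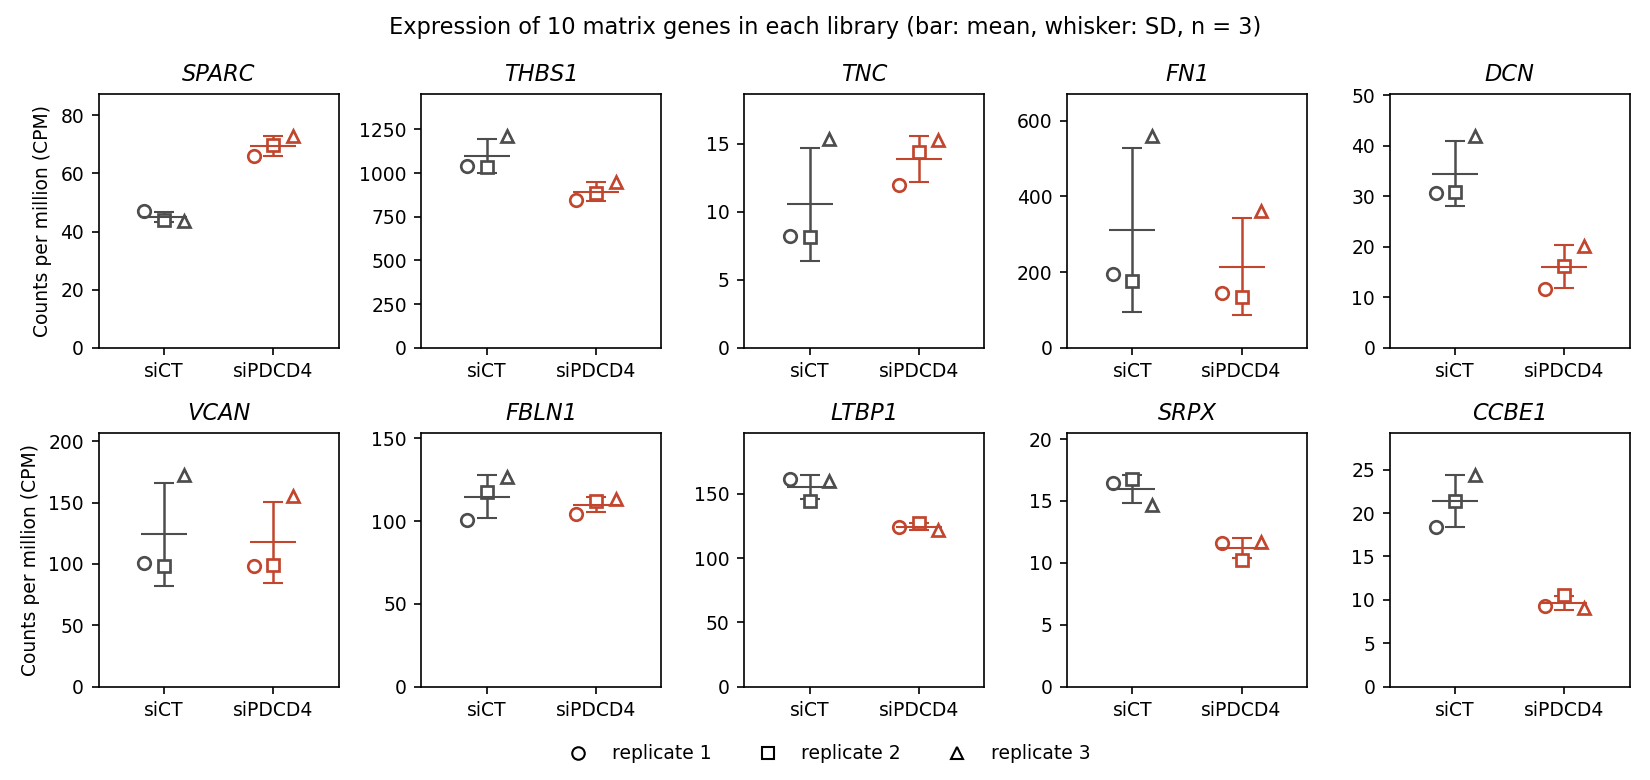
Normalised counts (CPM, vertical axes, each from 0) of the 10 genes in the 3 siCT and 3 siPDCD4 libraries, with the mean as a bar and the SD as whiskers (n = 3). SPARC is higher in all siPDCD4 libraries, CCBE1, DCN, LTBP1, SRPX and THBS1 are lower in all of them, and FN1 and VCAN are highest in the libraries numbered 3 of both groups.

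The comparison of siPDCD4 with siCT asked which of these genes changed with less PDCD4. By edgeR's quasi-likelihood test with Benjamini-Hochberg adjustment over all 13047 genes, SPARC rose and CCBE1 fell, so that 2 of the 10 members passed an adjusted p of 5%, where 56 of all genes tested (0.429%) did. DESeq2 called 4 members, SPARC, CCBE1, DCN and LTBP1, and 1.31% of all genes to which it gave an adjusted p. For 6 members the 2 groups did not overlap in CPM, 1 with siPDCD4 higher and 5 with siPDCD4 lower, against 6.81% and 7.14% of all genes tested. The median log2 fold change of the members was -0.31, beside -0.01 over all genes tested, with 8 of 10 below 0. Since the members were selected on this contrast, these shares say nothing beyond that choice.

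**Figure D2:**
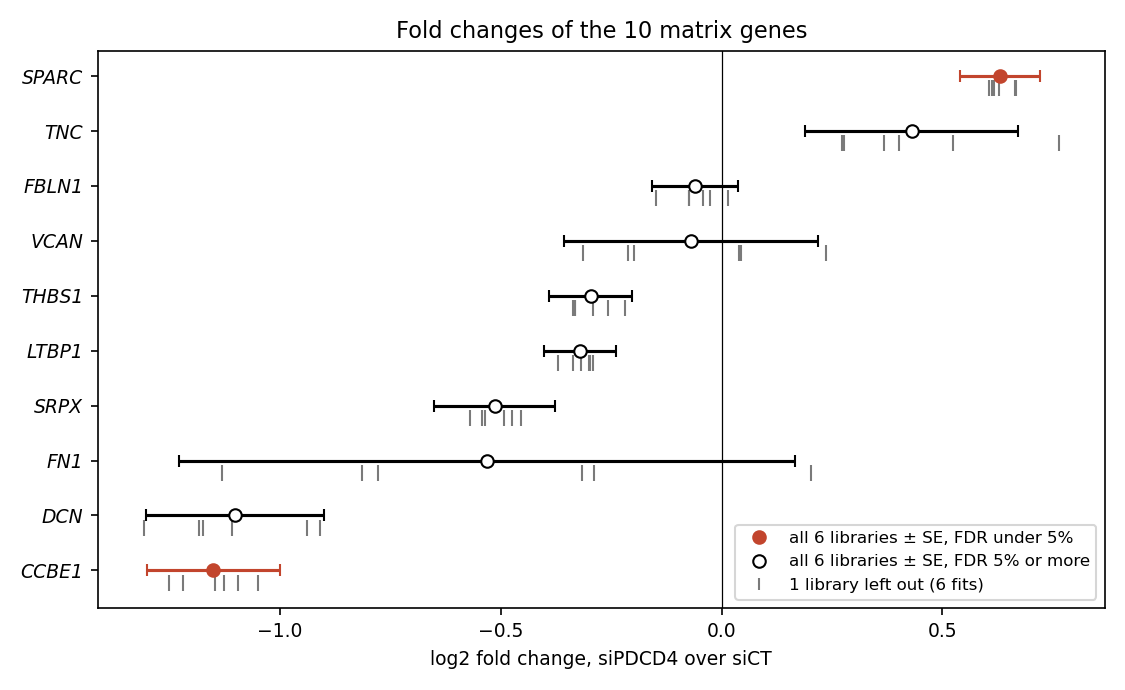
Log2 fold change of siPDCD4 over siCT for the 10 genes, with SE over all 6 libraries (points) and the values with each library left out in turn (ticks). SPARC at 0.63 and CCBE1 at -1.15 are the filled points past the threshold, and the ticks of FN1, VCAN and FBLN1 lie on both sides of 0.

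SPARC (ENSG00000113140.11, chromosome 5, 151661096 to 151686975, minus strand) encodes a collagen-binding matricellular protein that loosens cell adhesion. Its level was 46.9, 44.1 and 43.7 CPM in siCT replicates 1 to 3 and 66.1, 69.7 and 72.9 CPM in siPDCD4 replicates 1 to 3. Every siPDCD4 library lay well above every siCT library, and the spread within each group was small. The log2 fold change was 0.63 ± 0.09 (SE, n = 3 per group; adjusted p = 0.0157, edgeR). It lay between 0.61 and 0.67 with any 1 library left out, and passed the threshold in 2 of those 6 analyses. It missed it without siPDCD4 replicate 1 (adjusted p = 0.0644), 2 (0.0711) or 3 (0.0622) and without siCT replicate 2 (0.0909). Counting protein-coding transcripts alone, SPARC still passed, with a log2 fold change of 0.67 (adjusted p = 0.0451).

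THBS1 (ENSG00000137801.11, chromosome 15, 39581079 to 39599466, plus strand) encodes thrombospondin-1, which binds cells through CD47 and integrins and can activate latent TGF-beta. Its level was 1043, 1037 and 1213 CPM in siCT and 845, 886 and 950 CPM in siPDCD4. The groups did not overlap, although siCT replicates 1 and 2 were close to siPDCD4 replicate 3. The log2 fold change was -0.30 ± 0.09 (adjusted p = 0.319), and without the correction for transcript length it was -0.45 (adjusted p = 0.0387). With protein-coding transcripts alone it was -0.46 ± 0.09 (adjusted p = 0.0838, edgeR). TNC (ENSG00000041982.17, chromosome 9, 115019575 to 115118207, minus strand) encodes tenascin-C, a large hexameric protein that weakens the hold of cells on fibronectin. It had only 137 to 244 estimated reads per library, with 8.20, 8.11 and 15.3 CPM in siCT and 12.0, 14.4 and 15.2 CPM in siPDCD4. The high value of siCT replicate 3 made the groups overlap, and the log2 fold change was 0.43 ± 0.24 (adjusted p = 0.728). It moved to 0.28 without siCT replicate 1, 0.27 without siCT replicate 2 and 0.76 ± 0.17 without siCT replicate 3 (adjusted p = 0.887, 0.972 and 0.134).

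FN1 (ENSG00000115414.21, chromosome 2, 215360440 to 215436073, minus strand) varied more between libraries of a group than between the groups. It stood at 195, 177 and 560 CPM in siCT and at 146, 135 and 362 CPM in siPDCD4. In each group the library numbered 3 was far above the other 2, by a factor of 3.01 over their mean in siCT and 2.58 in siPDCD4. The log2 fold change was -0.53 ± 0.70 (adjusted p = 0.958), and it turned to 0.20 ± 0.57 without siCT replicate 3 (adjusted p = 0.937). With both libraries numbered 3 left out, which was tried after these values were seen, it was -0.40 ± 0.07 (adjusted p = 0.0939).

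DCN (ENSG00000011465.18, chromosome 12, 91140484 to 91183217, minus strand), the gene of decorin, which regulates collagen fibrils and binds TGF-beta and growth factor receptors, had 30.6, 30.8 and 41.9 CPM in siCT. In siPDCD4 it had 11.7, 16.2 and 20.2 CPM, so the groups did not overlap and the library numbered 3 was the highest of each. The log2 fold change was -1.10 ± 0.20, just outside the threshold (adjusted p = 0.0541). It passed without siPDCD4 replicate 3 (adjusted p = 0.0447), by DESeq2 (adjusted p = 4.66e-05) and with no filter on low counts (adjusted p = 0.0322). Without the correction for transcript length the SE was 0.36 and the adjusted p was 0.377, and DCN rested on 175 to 647 estimated reads per library. VCAN (ENSG00000038427.16, chromosome 5, 83471618 to 83582303, plus strand), which encodes versican, had 101, 98.5 and 173 CPM in siCT and 98.3, 98.7 and 156 CPM in siPDCD4. Libraries with the same number were close to each other across the groups, and the log2 fold change was -0.07 ± 0.29 (adjusted p = 0.985). It turned to 0.24 ± 0.21 without siCT replicate 3 (adjusted p = 0.732).

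FBLN1 (ENSG00000077942.19, chromosome 22, 45502238 to 45601135, plus strand) encodes fibulin-1, which binds fibronectin and elastic fibres. It had 101, 117 and 126 CPM in siCT and 105, 112 and 113 CPM in siPDCD4. All siPDCD4 values lay inside the siCT range, with a log2 fold change of -0.06 ± 0.10 (adjusted p = 0.965). LTBP1 (ENSG00000049323.16, chromosome 2, 32946953 to 33399509, plus strand) encodes the protein that tethers latent TGF-beta to the matrix. Its level was 162, 145 and 160 CPM in siCT and 124, 127 and 122 CPM in siPDCD4. The groups did not overlap and the siPDCD4 values were tight, and the log2 fold change was -0.32 ± 0.08 (adjusted p = 0.180 by edgeR and 0.0403 by DESeq2).

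CCBE1 (ENSG00000183287.15, chromosome 18, 59430939 to 59697662, minus strand) encodes a secreted collagen- and calcium-binding protein that assists the cleavage of VEGF-C in lymphatic growth. Its level was 18.4, 21.4 and 24.4 CPM in siCT and 9.29, 10.6 and 9.02 CPM in siPDCD4. Every siPDCD4 library was well below every siCT library, although CCBE1 had only 143 to 396 estimated reads per library. The log2 fold change was -1.15 ± 0.15 (adjusted p = 0.0106), and it lay between -1.25 and -1.05 with any 1 library left out, passing in 4 of 6 such analyses. It did not pass without siPDCD4 replicate 1 (adjusted p = 0.0644), without siPDCD4 replicate 3 (0.0543) or with protein-coding transcripts alone (log2 fold change -1.02 ± 0.26, adjusted p = 0.213). SRPX (ENSG00000101955.15, X chromosome, 38149336 to 38220924, minus strand) encodes a sushi-repeat protein. It had 16.4, 16.8 and 14.6 CPM in siCT and 11.6, 10.2 and 11.7 CPM in siPDCD4, groups that did not overlap, with a log2 fold change of -0.51 ± 0.14 (adjusted p = 0.216).

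Exons of 6 members, SPARC, THBS1, TNC, VCAN, LTBP1 and CCBE1, overlap exons of another gene on the opposite strand in GENCODE. The library kit keeps strand according to the study's methods, but no source used here gives the strand setting of the quantification.

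The libraries numbered 3 stood apart for some members in the same way in both groups. FN1 and VCAN exceeded both other libraries of the group by at least 1.5-fold in siCT and in siPDCD4 (2.87- and 2.49-fold for FN1, 1.71- and 1.58-fold for VCAN), as 142 of all genes tested (1.09%) did. This was looked for after the values of FN1 were seen, and is a description. DCN was 1.36- and 1.25-fold above the higher of the other 2 libraries, and TNC was 1.87-fold above in siCT but 1.06-fold in siPDCD4. SPARC, FBLN1, LTBP1, SRPX and CCBE1 lay between 0.85- and 1.14-fold in both groups, and THBS1 at 1.16- and 1.07-fold. Among genes named by rule in the lists around the members, TGFBI, a secreted integrin ligand induced by TGF-beta, was 1.51-fold above in siCT and 1.69-fold in siPDCD4, and FAP, a protease used as a fibroblast marker, 1.77- and 2.12-fold. These were not typical of their lists: 4 of 16 tested genes of the TGF-beta list and 1 of 4 tested fibroblast markers exceeded 1.5-fold in both groups. ID1 was at 1.09- and 0.94-fold in siCT and siPDCD4, TGIF1 at 0.90- and 1.24-fold, COL1A1 at 1.15- and 1.22-fold, COL6A3 at 1.10- and 1.45-fold and THY1, under 1 TPM, at 1.42- and 0.092-fold. The part of these values, and of the depth and protein-coding share of siCT replicate 3, in the levels of FN1 and VCAN was not tested.

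**Figure D3:**
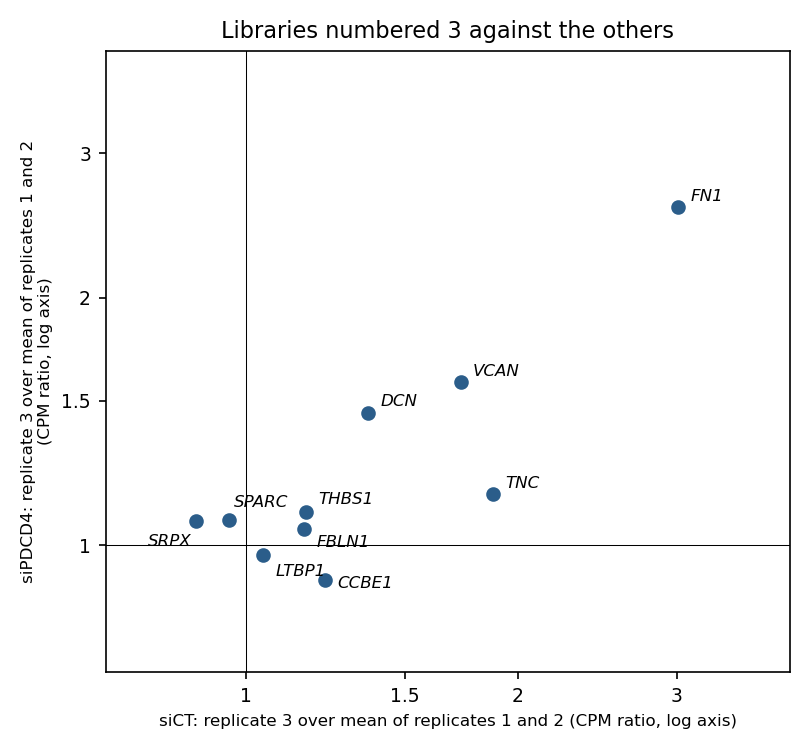
Ratio of replicate 3 to the mean of replicates 1 and 2, in CPM, in siCT (horizontal axis) and siPDCD4 (vertical axis), both on log axes. FN1 lies at 3.01 and 2.58 and VCAN at 1.73 and 1.58, while SPARC, SRPX, LTBP1, FBLN1, THBS1 and CCBE1 lie near 1 on both axes.

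Transcript forms of the members were compared as shares. With edgeR's diffSpliceDGE and Simes p-values, 35 of 7877 genes (0.444%) had changed shares and none of the 8 members that could be tested did. No member had an unadjusted p under 0.05 by this test (0 of 8), and the smallest Simes p was 0.605. By the gene-level F test 43 of 7877 genes (0.546%) and 0 of the 8 members passed the adjusted threshold, and SPARC had an unadjusted p of 0.0161. THBS1 and SRPX had no second transcript with enough counts for the test.

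For FN1, 10 near full-length coding transcripts were compared by TPM. Those with extra domain A made up 50.6%, 56.3% and 53.6% of them in siCT and 57.1%, 66.3% and 52.3% in siPDCD4. Those with extra domain B made up 20.6%, 24.0% and 23.5% in siCT and 23.1%, 23.6% and 21.8% in siPDCD4. Both exons were thus in use in all libraries, at overlapping shares, and the libraries numbered 3, with the highest FN1 level, did not stand apart in either. The transcripts that led in reads were FN1-211, with neither exon (26.4% to 43.6% of FN1 reads), FN1-212, with extra domain A (31.6% to 43.8%), and FN1-203, with both (16.8% to 20.1%).

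**Figure D4:**
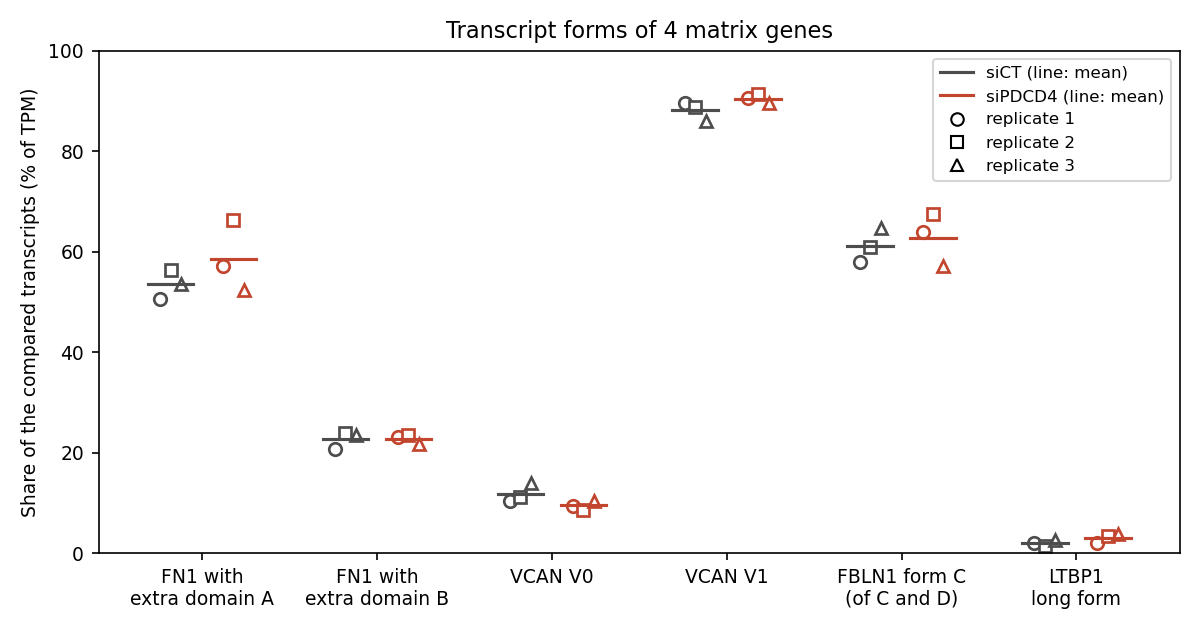
Shares of transcript forms (% of the TPM of the transcripts compared) for FN1, VCAN, FBLN1 and LTBP1 in each library, with group means as lines. Extra domain A is kept in 50.6% to 66.3% of FN1 and extra domain B in 20.6% to 24.0%, V1 leads for VCAN with 85.9% to 91.3%, and the groups overlap for every form shown.

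Versican transcripts are named for the exons that carry the attachment sites of the chondroitin sulfate chains, an alpha exon of 2961 bases and a beta exon of 5262 bases. V1, with the beta exon alone, made up 89.7%, 88.9% and 85.9% of the transcripts that reach the end of the gene in siCT and 90.6%, 91.3% and 89.6% in siPDCD4. V0, with both exons, made up the rest, 10.3% to 14.1% in siCT and 8.69% to 10.4% in siPDCD4, ranges that just overlapped. Transcripts of V2 (alpha exon alone) and V3 (neither) were listed at 0 in all libraries.

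Fibulin-1 was made in its C and D forms, which differ in the last domain. FBLN1-201 (form C, 683 codons) made up 57.9%, 60.9% and 64.8% of the TPM of both in siCT and 63.9%, 67.5% and 57.1% in siPDCD4, with no order between the groups. LTBP1 came almost wholly from its proximal start. The long form from the distal start, which has the response element shown above, had 1.47% to 2.59% of the TPM of 5 coding transcripts in siCT and 1.96% to 3.83% in siPDCD4. Among the short transcripts LTBP1-202 held from 33.5% to 60.4% of LTBP1 reads, with the highest share in siCT replicate 3.

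Reads of SPARC fell on a retained-intron transcript, SPARC-202, more than on the full coding transcript SPARC-201. SPARC-202 held 42.1% to 49.0% of SPARC reads in siCT and 45.2% to 46.4% in siPDCD4, and SPARC-201 held 30.9% to 39.0% and 31.8% to 36.2%. The short coding transcript SPARC-204, singled out after its values were seen, held 4.27% to 8.06% in siCT and 11.4% to 13.2% in siPDCD4, which did not overlap, but the gene did not pass the test of shares. CCBE1-201, which encodes the whole protein of 406 codons, held 68.5%, 78.4% and 80.1% of CCBE1 reads in siCT and 81.0%, 88.2% and 93.2% in siPDCD4. Thus its share did not fall with the gene, although these shares rest on few reads.

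DCN-220 (359 codons, the full decorin core protein) held 59.6% to 81.8% of DCN reads and DCN-204 12.3% to 15.3%. THBS1-201 held 98.3% to 98.7% of THBS1 reads in siCT and 97.7% to 97.8% in siPDCD4, ranges that did not overlap and were not tested. Retained-intron transcripts of THBS1 held 1.19% to 1.62% in siCT and 2.12% to 2.26% in siPDCD4. SRPX-201 held 72.7% to 97.4% of SRPX reads. The main transcript of TNC was TNC-215 (31.8% to 56.9%), while TNC-201 and TNC-209 ranged from 0% to 38.7% and from 0% to 40.4%, at the low depth of this gene. TNC-202, with 2201 codons the longest, ranged from 0% to 19.6%.

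Genes around the members were read from 8 lists, and in none did a gene pass the adjusted threshold in either direction. Of 23 matricellular relatives 10 were tested, 5 above and 5 below 0, with a median log2 fold change of -0.02. The most abundant were TGFBI (776 TPM in siCT; -0.58 ± 0.28, adjusted p = 0.672), the SPARC relative FSTL1 (-0.38 ± 0.15, adjusted p = 0.50) and the integrin ligand CCN1 (-0.08 ± 0.23, adjusted p = 0.983). Of 25 other proteoglycans and link proteins 6 were tested (2 above, 4 below 0, median -0.13), and 21 stayed under 1 TPM in every library. The basement membrane proteoglycans AGRN (0.11 ± 0.28, adjusted p = 0.977) and HSPG2 (0.24 ± 0.27, adjusted p = 0.933) led, before the intracellular SRGN (-0.00 ± 0.30, adjusted p = 0.999).

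Of 20 fibulin, fibrillin and LTBP relatives 10 were tested, 5 above and 5 below 0, with a median of -0.00. EFEMP1 (fibulin-3) was the most abundant, with 106 TPM in siCT and a log2 fold change of -0.05 ± 0.08 (adjusted p = 0.967), followed by FBN2 (0.07 ± 0.10, adjusted p = 0.963) and LTBP3 (0.04 ± 0.13, adjusted p = 0.982). LTBP1 had -0.32, and its difference from LTBP3 was not tested. Of 8 relatives of CCBE1 and SRPX 5 were tested, 2 above and 3 below 0, with a median of -0.27. The VEGF-C receptor NRP2 had -0.46 ± 0.11 (adjusted p = 0.130), the paralogue SRPX2 0.08 ± 0.12 (adjusted p = 0.963) and VEGFC itself 0.11 ± 0.18 (adjusted p = 0.965).

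Receptors of the members had 18 of 21 genes tested, 14 above and 4 below 0, with a median of 0.07. The integrin subunit ITGB1, shared by the main fibronectin receptors, had 323 TPM in siCT and 244 TPM in siPDCD4, with a log2 fold change of -0.43 ± 0.08 just outside the threshold (adjusted p = 0.0541). ITGA3 had 0.07 ± 0.10 (adjusted p = 0.955), and CD44, the hyaluronan receptor, 0.31 ± 0.09 (adjusted p = 0.242). Proteases that cut the members had 15 of 20 genes tested, 10 above and 5 below 0, with the highest median of the 8 lists, 0.23. HTRA1, which cleaves fibronectin and proteoglycans, had 0.33 ± 0.09 (adjusted p = 0.242), and the cathepsins CTSL and CTSB had 0.07 ± 0.10 (adjusted p = 0.962) and -0.05 ± 0.11 (adjusted p = 0.975).

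Enzymes that build the chondroitin and dermatan sulfate chains of decorin and versican had 20 of 22 genes tested, 12 above and 8 below 0, with a median of 0.04. The epimerase DSE, which makes dermatan sulfate, had 0.06 ± 0.08 (adjusted p = 0.964), the xylose kinase FAM20B 0.08 ± 0.09 (adjusted p = 0.925) and the polymerising factor CHPF2 0.10 ± 0.11 (adjusted p = 0.940). Ligands of the TGF-beta family and SMAD-induced genes had 16 of 17 genes tested, 8 on each side of 0, with a median of -0.04. The ligands TGFB1 (0.58 ± 0.19), TGFB2 (0.64 ± 0.23) and TGFB3 (0.85 ± 0.39) lay above 0 (adjusted p = 0.353, 0.451 and 0.586, edgeR). The 8 genes below 0 were thus all from the SMAD-induced part of the list. Besides TGFBI, the most abundant were ID1 (-0.08 ± 0.11, adjusted p = 0.961) and TGIF1 (0.00 ± 0.13, adjusted p = 1.00). Of the marker lists of other cell types, none held a gene past the threshold either. KRT5, KRT17 and KRT6A led the epithelial list, where the log2 fold change was -0.08, 0.07 and -0.30 in that order (adjusted p = 0.965, 0.934 and 0.320).

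**Figure D5:**
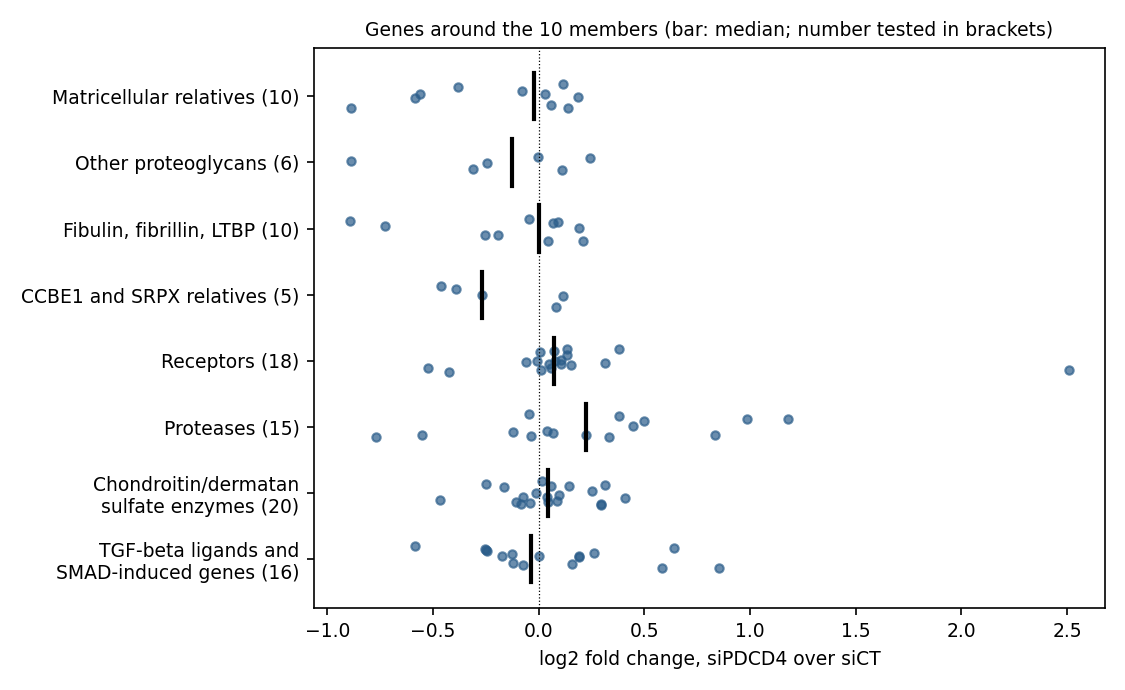
Log2 fold change of siPDCD4 over siCT for the tested genes of 8 lists around the members (points, spread vertically for sight), with the median of each list as a bar. No point is past the adjusted threshold, and the medians lie between -0.27 (CCBE1 and SRPX relatives) and 0.23 (proteases).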

How the data were processed

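Total RNA from 6 MCF10A libraries (3 siPDCD4, 3 siCT) was prepared with a stranded kit, sequenced in pairs of 75 bases and quantified by the authors with Salmon (version not given in the sources used here) against GRCh38, Ensembl release 109. The deposited tables give estimated counts and TPM per transcript, both made by the authors in the Salmon run. Of 194142 transcripts listed, 181244 were matched to GENCODE 44 (GRCh38) and summed to 34486 genes. The other 12898 transcripts, with 5.47% to 6.21% of counts, were not analysed here.

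The test on the rounded counts was edgeR's quasi-likelihood F test (version 4.0.16, R 4.3.3) with robust fitting, TMM factors, filterByExpr and an offset for mean transcript length, with group as the only factor and Benjamini-Hochberg adjustment over 13047 genes at 5%. Fold changes are siPDCD4 over siCT, CPM uses the same offset, and SE was computed from the F statistic. Isoform shares were tested with diffSpliceDGE on transcripts with at least 5% of a gene's counts. DESeq2 1.42.0 was an alternative, and the others were the normalisation, offset, filter, transcript set, replicate block and each library left out. Scripts were tested on simulated data. Genes named were the 10 members, PDCD4, transcripts with 10% or more of a member's counts and, in each list, the 3 tested non-members with the highest TPM and any gene past 5%. Members and lists were chosen with earlier results of these data known.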

Additional observations from a re-analysis of the deposited data

How the results depend on the processing

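Of 150 member results under other settings, 126 kept their direction and their side of the threshold, 9 lost a call, 8 gained one and 7 changed sign. The members called, 2 with all libraries, were 4 without the length offset (with THBS1 and SRPX), 4 by DESeq2 (with DCN and LTBP1), 1 with protein-coding transcripts alone (SPARC), 0 to 2 with a library left out and 0 with both libraries numbered 3 left out, an alternative chosen after seeing the data that leaves fewer samples (adjusted p = 0.0590 for SPARC and 0.0785 for CCBE1). Of all genes, 56 were called, and 99 at 10%, 128 without the length offset, 181 by DESeq2, 108 with no filter and 17 to 40 with a library left out. With a library left out the log2 fold change of FN1 ranged from -1.13 to 0.20, that of VCAN from -0.31 to 0.24 and that of FBLN1 from -0.15 to 0.014, each highest without siCT replicate 3. VCAN also changed sign without the length offset (0.038) and FBLN1 with both libraries numbered 3 left out (0.00084). Genes with changed isoform shares were 35, and 10 with shares of at least 10%, with 38 to 50 when a library was left out; no member was called in any of these. Apart from the fewer samples named, the cause of these shifts was not tested.

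No label pairs the libraries with the same number. Their deviations from the group means correlated at 0.072, 0.117 and 0.183. Between different numbers the correlation was 0.102 for siPDCD4 replicate 1 with siCT replicate 2. The other correlations between different numbers were -0.030, -0.030, -0.193, -0.144 and -0.069. Whether libraries with the same number were handled together was not tested. With a replicate block 102 genes and 4 members were called (SPARC, CCBE1, DCN with an adjusted p of 0.0072, and FN1 at -0.48 ± 0.07, adjusted p = 0.0282), and 17 genes had changed isoform shares. Depth limits TNC, SRPX, CCBE1 and DCN, with 137 to 647 estimated reads per library.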
